A study of Saccharomyces cerevisiae with 6 samples.

Results

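The mitotic exit network is the signalling chain that ends mitosis in the budding yeast Saccharomyces cerevisiae, and its 10 core genes are described here: TEM1, BFA1, BUB2, LTE1, NUD1, CDC15, DBF2, DBF20, MOB1 and CDC14. They are 10 of the 5974 coding genes whose 1000 bp upstream window was counted. The set was chosen by the role of the genes in the network and selected on the signal of the 6 samples, since TEM1 was known to lie beside one of the highest. The level at TEM1 is thus a description and supports nothing. The study is on the histone deacetylase Rpd3, the forkhead protein Fkh1 and replication origins, per its title, and the comparison asks whether the FLAG-tagged protein, which the labels do not name, lies differently along chromosomes without RPD3. Chromatin immunoprecipitated with the anti-FLAG M2 antibody was sequenced from 3 samples of strain OAy1102, labelled WT, and 3 of strain YHy17, labelled rpd3Δ. Both groups were held in G1 by α-factor (about 5 nM for 4 h at 23 °C). The labels name no other allele, but no sample had a count in BAR1, the gene of the protease that breaks down α-factor. RPD3 itself had 200 to 299 counts per WT sample and 22 to 28 per rpd3Δ sample. Nothing in the labels says that replicates were grown separately, so the spread that the p-values measure may be technical.

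In this network the small GTPase Tem1 is the switch. Bfa1 and Bub2 together form its GTPase-activating complex and hold it off, whereas Lte1 favours its activation. Nud1, at the spindle pole, is the scaffold on which the kinase Cdc15 activates the kinases Dbf2 and Dbf20 with their partner Mob1, and the chain releases the phosphatase Cdc14 from the nucleolus, where Net1 anchors it. Cdc14 then reverses phosphorylation by the mitotic cyclin-dependent kinase.

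Total counts per sample were 3987250 to 6785491, of which 1857721 to 3715272 lay outside the ribosomal DNA, with a median of 7 to 12 counts per 50 bp bin. Signal is given on 2 scales. Scaled counts per bin were corrected for library size, and signal over the local median is the mean of a window divided by the median bin of the surrounding 20 kb in the same sample. Those medians were whole numbers of 4 to 14 counts near the 10 genes, which makes the second scale coarse. Binding regions, 900 in all, were called on the sum of the 6 samples. The mean signal in them over the sequence between them was 4.03, 4.22 and 3.33 in WT samples 1 to 3, and 4.08, 3.28 and 2.96 in rpd3Δ samples 1 to 3. WT sample 3 and rpd3Δ samples 2 and 3 thus had the flatter profiles.

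Of the 10 genes, 7 had an upstream window that overlapped a binding region, against 18.4% of all upstream windows. The regions come from the same 6 samples whose signal was known when the set was chosen, so this count is a description only. These were TEM1, BFA1, LTE1, NUD1, CDC15, DBF2 and MOB1, while BUB2, DBF20 and CDC14 had none. By upstream signal over the local median in the summed samples, TEM1 had 13.8 (rank 5 of 5970 windows), DBF2 4.51 (rank 78), BFA1 2.08 (rank 550), MOB1 1.74, CDC15 1.73, NUD1 1.53, LTE1 1.49, CDC14 1.19, DBF20 1.11 and BUB2 1.03. The median over all windows was 1.12, with quartiles of 0.932 and 1.43, so TEM1 and DBF2 stood far above it and DBF20 and BUB2 lay just below it.

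**Figure D1:**
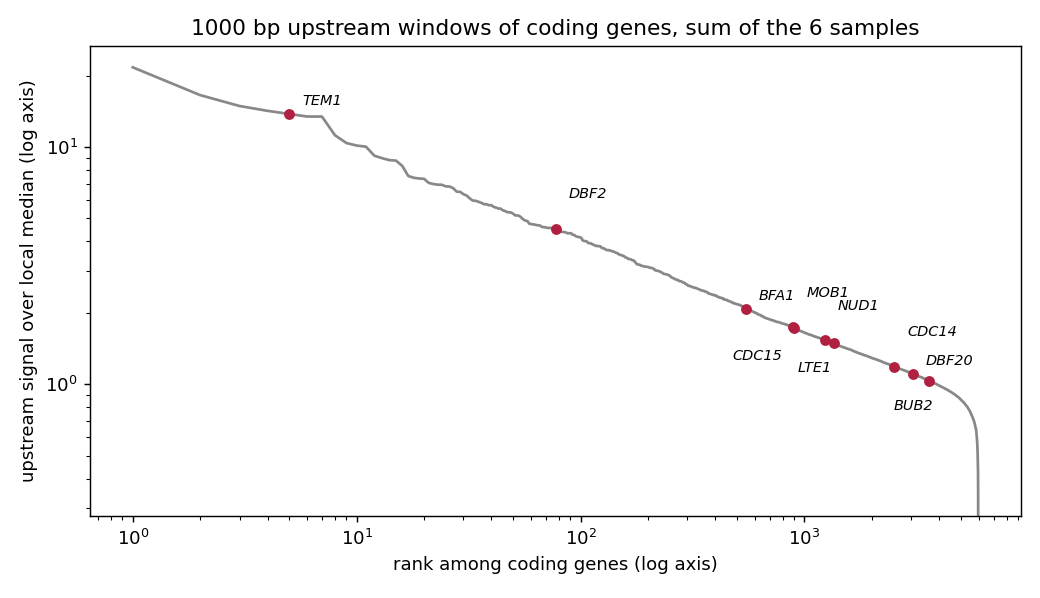
Upstream signal over the local median (vertical, log axis) of 5970 coding genes, ranked (horizontal, log axis), with the 10 network genes as red points. TEM1 lies at rank 5 and DBF2 at rank 78, and the other 8 genes lie between 2.08 and 1.03.

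The GTPase gene TEM1 (YML064C, chromosome XIII, 145139 to 145876 on the minus strand, R64) shares its upstream sequence with RPS1B (YML063W, 146482 to 147249 on the plus strand), which encodes a protein of the small ribosomal subunit. The genes diverge across a gap of 605 bp. In all 6 samples the summit, taken from a running mean over 250 bp, fell in the same bin, 146001 to 146050, 150 bp upstream of the TEM1 start codon and 456 bp upstream of that of RPS1B. The summit therefore lay nearer to TEM1. That bin held 347, 527 and 175 counts for WT and 358, 242 and 142 for rpd3Δ. The summit stood at 36.3, 40.6 and 24.7 times the local median in WT and at 35.5, 23.5 and 18.9 times in rpd3Δ. The first rpd3Δ sample stood nearly as high as the first WT sample, and the third WT sample nearly as low as the second rpd3Δ sample, so the genotypes overlapped. Over the mean in place of the median of the surrounding bins, which counts the peaks there too, the summit stood at 17.6, 17.1 and 14.0 times in WT and 17.2, 14.1 and 11.9 times in rpd3Δ, again with overlap. The exact permutation test over samples (two-sided) gave p = 0.2 for the summit and p = 0.3 for the upstream window, where 3 samples against 3 cannot go below 0.1.

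**Figure D2:**
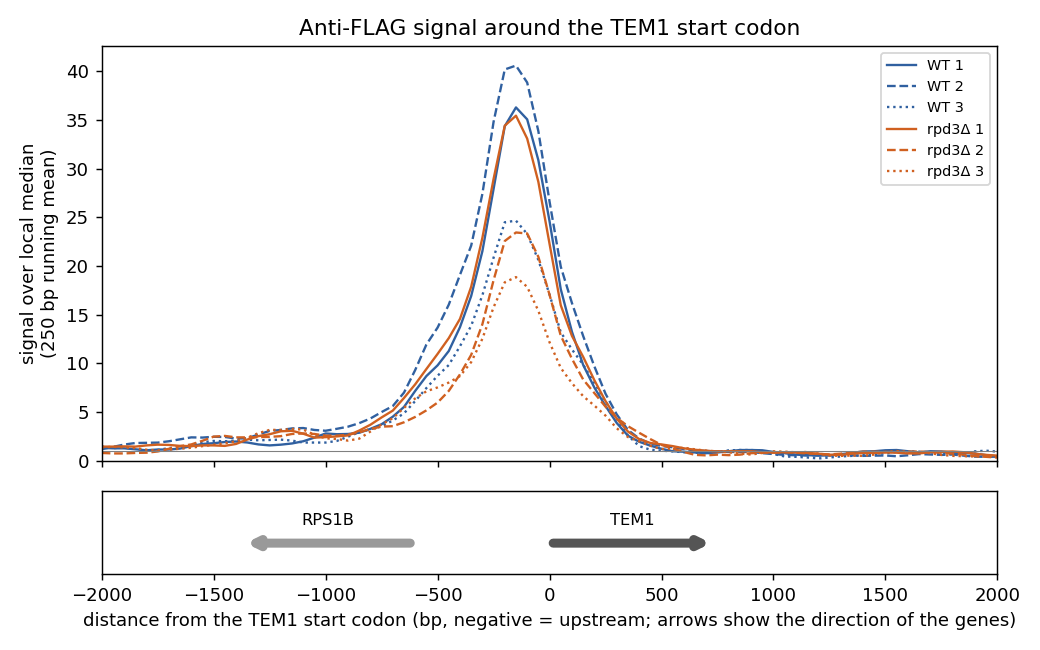
Signal over the local median (running mean over 250 bp, vertical) against the distance from the TEM1 start codon in bp, 1 line per sample, with the TEM1 and RPS1B genes as arrows. All 6 lines peak 150 bp upstream of TEM1, and the lines of the genotypes interleave between 18.9 and 40.6.

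At 50% of its height the peak was 350 to 450 bp wide. Of the counts in the whole region (145401 to 147450), 64.3% fell between the genes, 20.9% in TEM1 and 12.5% in RPS1B, in the summed samples. With each gene split into 3 parts of about equal length, the signal in TEM1 faded along the gene: its first part had 101 ± 13.3 scaled counts per bin for WT against 82.8 ± 16.4 for rpd3Δ (SD, n = 3 each), its middle part 20.7 ± 1.26 and 23.9 ± 4.96, and its last part 7.42 ± 0.915 and 9.30 ± 1.71. In RPS1B the first part had 30.4 ± 4.16 and 31.0 ± 2.34. The share of the region between the genes was 67.4%, 66.2% and 62.7% in WT and 66.6%, 58.1% and 59.1% in rpd3Δ, and the 3 samples with the lower summits had the smaller shares. Reads over RPS1B are uncertain as to copy, because RPS1A is a close paralog.

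For the upstream window of TEM1 (145877 to 146876) the scaled counts per bin were 114, 123 and 83.4 for WT against 111, 80.7 and 71.2 for rpd3Δ. WT sample 3 and rpd3Δ sample 1 crossed, as they did at the summit. The log2 fold change of rpd3Δ over WT was -0.28 (SE 0.322, edgeR adjusted p = 0.688 over all upstream windows), and for the whole region it was -0.23 (SE 0.183). The upstream window of RPS1B, which holds the same gap, had -0.29 (SE 0.347) and 16.5 times the local median, rank 2. Ordered by summit height, the samples stood as in their mean region signal given above, except that WT sample 1 and rpd3Δ sample 1 changed places; the part of this in the difference was not tested. Scaled on the binding regions themselves, the TEM1 upstream value was -0.17, and with total signal it was -0.79.

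The upstream windows most like that of TEM1 over the 6 samples, by Euclidean distance of log2 signal over the local median among genes over 20 kb from chromosome ends and leaving out windows that overlap it, such as that of RPS1B, were those of HOS3, a histone deacetylase gene (distance 0.348), IDI1, an isoprenoid synthesis gene that shares the HOS3 upstream region (0.426), IFM1, for a mitochondrial translation initiation factor (0.454), ECM10, for a mitochondrial chaperone (0.650), and GLN1, for glutamine synthetase (0.892). HOS3 had 16.2, 15.9 and 10.5 times the local median in WT and 17.3, 10.4 and 8.12 times in rpd3Δ, with WT sample 3 and rpd3Δ samples 2 and 3 low. The windows were picked for likeness to TEM1 over these same 6 values, so a shared sample pattern follows from the choice and supports nothing. None of the 5 passed (log2 fold changes of -0.14, -0.13, -0.79, -0.63 and -0.41 in that order).

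The kinase gene DBF2 (YGR092W, chromosome VII, 668189 to 669907, plus strand) had the second highest upstream signal of the 10. Its upstream window (667189 to 668188) had 46.1, 44.3 and 33.2 scaled counts per bin for WT against 47.0, 34.0 and 33.4 for rpd3Δ. As at TEM1, the third WT sample was low and the first rpd3Δ sample high, and the genotypes overlapped. The log2 fold change was -0.11 with SE 0.212 (edgeR, adjusted p = 0.839). The summit lay 214 bp upstream of the start codon in 3 samples and 164 bp in the others, at 10.9, 11.1 and 8.53 times the local median in WT and 11.5, 7.27 and 6.49 times in rpd3Δ. The next gene upstream, PRP31, a splicing factor gene on the same strand, ends 363 bp before DBF2, so the summit lay between its end and the DBF2 start.

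Within the DBF2 gene the signal was lower than upstream, at 1.32 times the local median in the summed samples. It was higher in rpd3Δ in the edgeR fit, a call that depended on the settings. The binding region of the upstream peak (667501 to 668500) ran into the first part of the gene, so the body count holds its downstream end. That region as a whole had a log2 fold change of -0.04 (SE 0.206). The part of the peak in the body difference was not tested. The gene body had 11.3, 10.5 and 9.76 scaled counts per bin for WT against 14.9, 12.3 and 13.0 for rpd3Δ, without overlap of the genotypes, a log2 fold change of 0.35 with SE 0.109 (edgeR, adjusted p = 0.0378 over 5966 gene bodies). It was the only one of the 10 bodies that passed, where 4.02% of all bodies passed as higher and 3.12% as lower. Beside DBF2, 1 body had groups that did not overlap, that of CDC15, which was lower. Over all bodies 13.6% were wholly higher and 10.3% wholly lower. The difference lay in the first part of the gene, with 15.3 ± 2.38 in WT and 21.3 ± 4.77 in rpd3Δ (SD, n = 3 each), and the middle part, with 9.33 ± 1.44 and 12.2 ± 1.62. The last part had 6.97 ± 0.987 and 6.81 ± 2.03. The local sequence outside binding regions had a log2 ratio of 0.07. The call was lost without any 1 of the 3 WT samples or of rpd3Δ samples 1 and 2 (adjusted p = 0.0543 to 0.173) and by DESeq2 (adjusted p = 0.0678), and scaling on total signal turned the value to -0.15. In all it passed under 5 of 15 alternatives.

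DBF20 (YPR111W, chromosome XVI, 747306 to 749000), the paralog of DBF2, had no such peak. Its upstream window had 9.44, 9.15 and 11.0 scaled counts per bin for WT against 11.0, 9.43 and 8.94 for rpd3Δ, about the level of the surrounding sequence (8.80 and 9.35), with a log2 fold change of 0.01 (SE 0.137). Its body had 8.08 ± 0.595 and 8.02 ± 0.710 (SD, n = 3 each). Where the paralogs share sequence, reads over their bodies are uncertain as to copy.

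**Figure D3:**
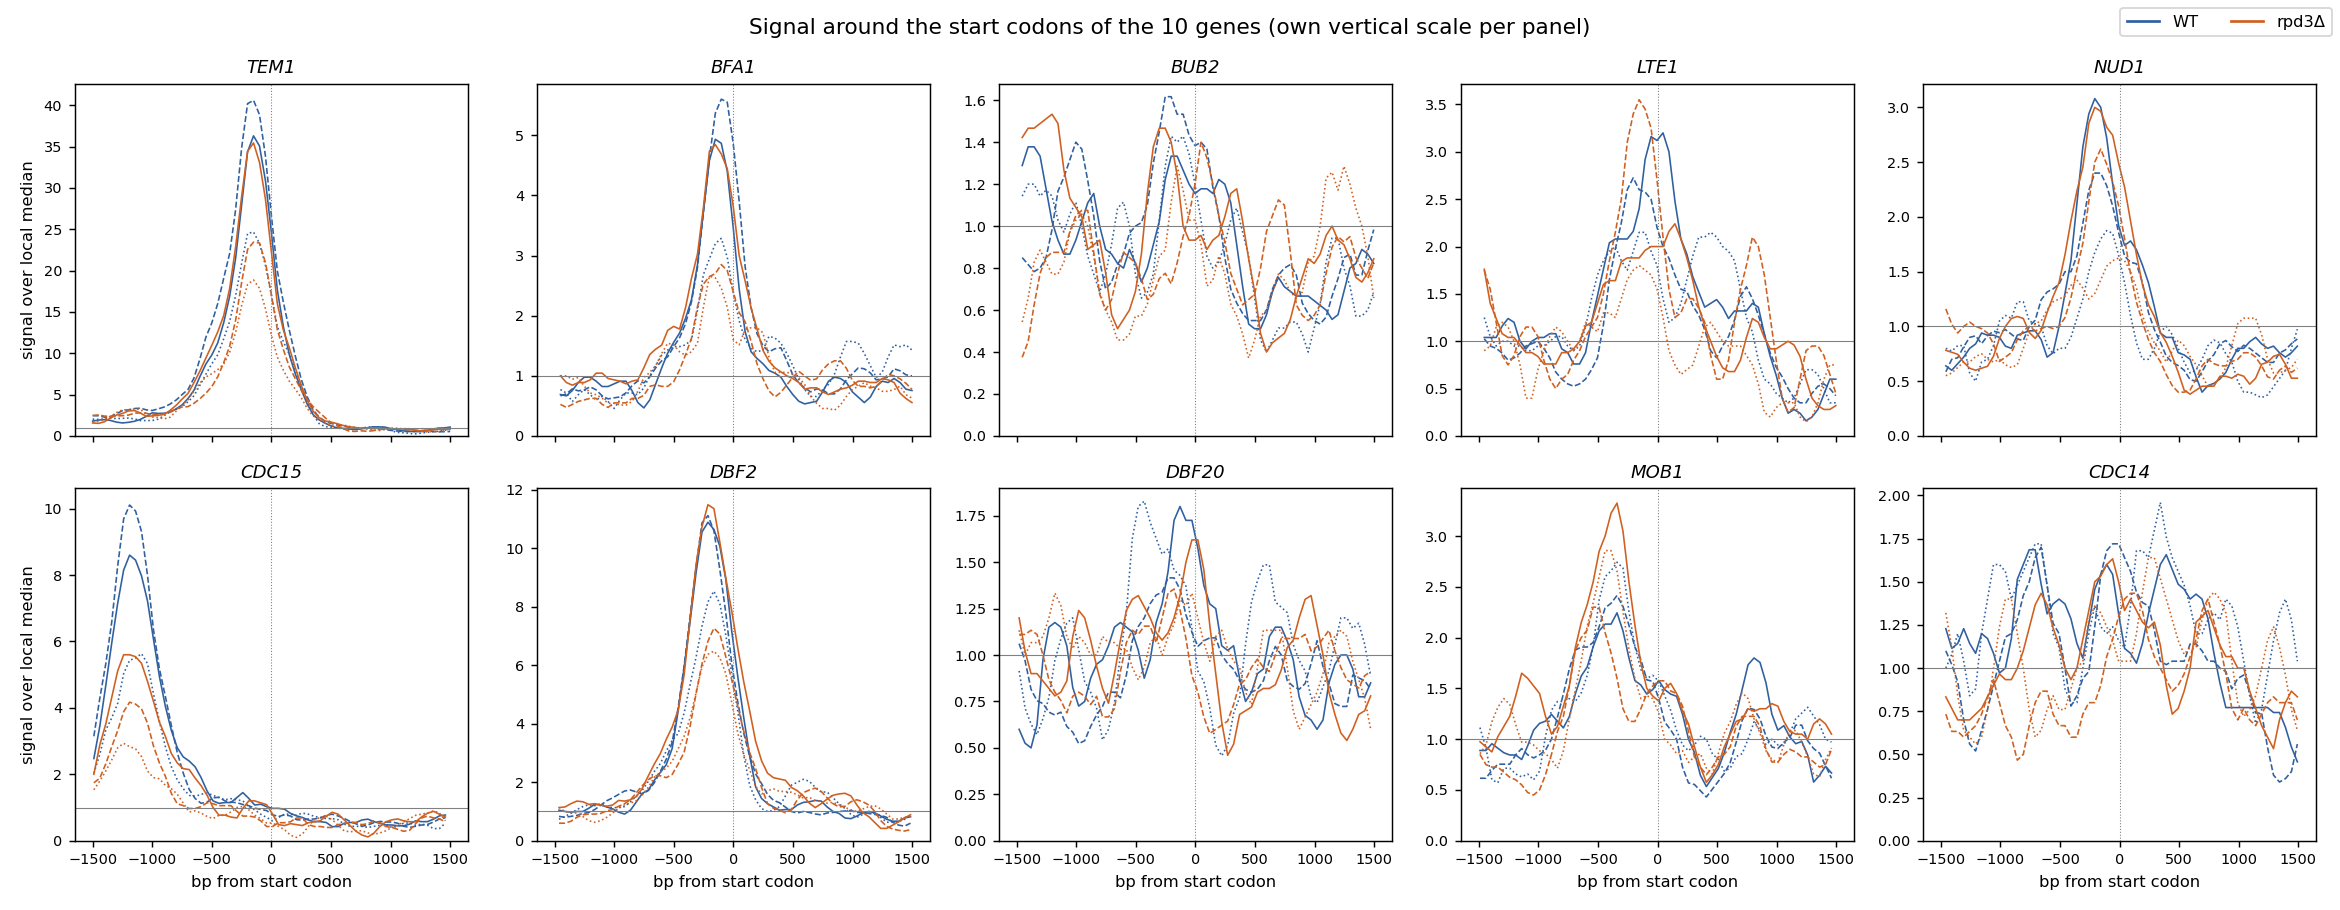
Signal over the local median (running mean over 250 bp, vertical, own scale per panel) from 1500 bp before to 1500 bp after each start codon (horizontal, bp), with WT in blue and rpd3Δ in orange, and samples 1, 2 and 3 as solid, dashed and dotted lines. TEM1, BFA1, NUD1 and DBF2 peak just upstream of the start codon, CDC15 over 1 kb upstream, and BUB2, DBF20 and CDC14 stay below 2 times the local median.

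CDC15 (YAR019C, chromosome I, 172211 to 175135, minus strand), the kinase gene between TEM1 and DBF2 in the chain, had the largest genotype difference of the 10. Its upstream window (175136 to 176135) had 16.6, 15.0 and 12.1 scaled counts per bin for WT against 11.5, 8.50 and 8.33 for rpd3Δ. The highest rpd3Δ value stayed under the lowest WT value. The window fell, a log2 fold change of -0.62 with SE 0.136 (edgeR, adjusted p = 0.00140 over 5967 upstream windows). Together with CDC14 it was 1 of 2 network genes with a lower upstream window, where 4.24% of all upstream windows passed as lower and 1.73% as higher, and 0 of the 10 passed as higher by edgeR, by DESeq2 or at an unadjusted edgeR p under 0.05. As lower, 1 of the 10 passed by DESeq2 and 3 had an unadjusted edgeR p under 0.05. DESeq2 called 1.51% of all upstream windows higher and 2.01% lower, and at an unadjusted edgeR p under 0.05 it was 6.47% and 12.9%.

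Most of the signal in this window lay far from the gene. The binding region ran from 716 to 1665 bp upstream of the CDC15 start codon (175851 to 176800) and ended 55 bp before PAU7 (176856 to 177023), a member of a family of closely related cell wall genes, on the same strand. The summit, sought out to 2000 bp after the data were seen, lay 1190 bp upstream in 4 samples and at 1090 and 1240 bp in the others, at 8.60, 10.1 and 5.63 times the local median in WT and 5.60, 4.17 and 2.93 times in rpd3Δ. The region had 38.3, 43.0 and 25.7 scaled counts per bin for WT against 23.1, 17.8 and 15.7 for rpd3Δ, a log2 fold change of -0.92 with SE 0.212 (edgeR, adjusted p = 0.0234 over 900 regions, of which 3.89% passed as lower and 1.11% as higher). Its groups did not overlap, where 15.0% of regions were wholly lower and 7.89% wholly higher. The 500 bp next to the start codon had only 8.46 ± 0.227 and 6.39 ± 0.143, near the local sequence outside regions (7.43 and 6.65), and CDC15 itself had 4.71 ± 0.242 and 4.14 ± 0.222 (SD, n = 3 each), below that sequence. The values of the genotypes did not overlap in these 500 bp or in the first part of the gene (4.99 ± 0.245 and 3.29 ± 0.431). In the farther 500 bp of the window, with 20.7 ± 4.41 and 12.5 ± 3.52, they overlapped. The log2 ratio of the means was nevertheless larger in size there, -0.72 against -0.41 in the nearer 500 bp. How often such parts do not overlap over all genes was not counted, and where the difference lay was not tested. CDC15 lies 55.1 kb from the chromosome end, and the local sequence differed in the same direction, with a log2 ratio of -0.16. With the local signal of each sample as an offset the upstream value was -0.45 and the call was lost (adjusted p = 0.185), as it was when scaled on the binding regions (-0.51, adjusted p = 0.0670) and in the 500 bp window (-0.40, adjusted p = 0.403). The call on the upstream window passed whichever sample was left out. That on the region was lost without WT sample 1 (-0.87), WT sample 2 (-0.76) or rpd3Δ sample 2 (-0.88), with the local offset (-0.75) and with WT samples 1 and 2 pooled (-0.83).

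CDC14 (YFR028C, chromosome VI, 208413 to 210068, minus strand), the phosphatase gene at the end of the chain, fell upstream from a level close to background. Its window (210069 to 211068) had 9.54, 9.25 and 7.88 scaled counts per bin for WT against 7.02, 4.66 and 7.11 for rpd3Δ, without overlap, a log2 fold change of -0.52 with SE 0.161 (edgeR, adjusted p = 0.0344). The surrounding sequence outside regions had 6.90 and 6.28, a log2 ratio of -0.13, so the window stood above it in WT and level with it in rpd3Δ. The larger difference was in the 500 bp farther from the gene, with 9.69, 9.67 and 9.41 in WT and 6.69, 4.14 and 6.63 in rpd3Δ (log2 ratio -0.72). These hold the tRNA gene SUP6, 551 to 639 bp upstream, and the start of PTR3, a gene of amino acid sensing. The 500 bp next to CDC14 overlapped between genotypes but were also lower on average (log2 ratio -0.29). Which part held the difference was not tested. Copies of tRNA genes share sequence, which makes reads there uncertain. The call was lost without WT sample 1 (-0.47), WT sample 2 (-0.49) or rpd3Δ sample 2 (-0.34), by DESeq2 (-0.47, adjusted p = 0.141) and with the local offset (-0.38, adjusted p = 0.327), and in all it passed under 7 of 16 alternatives.

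**Figure D4:**
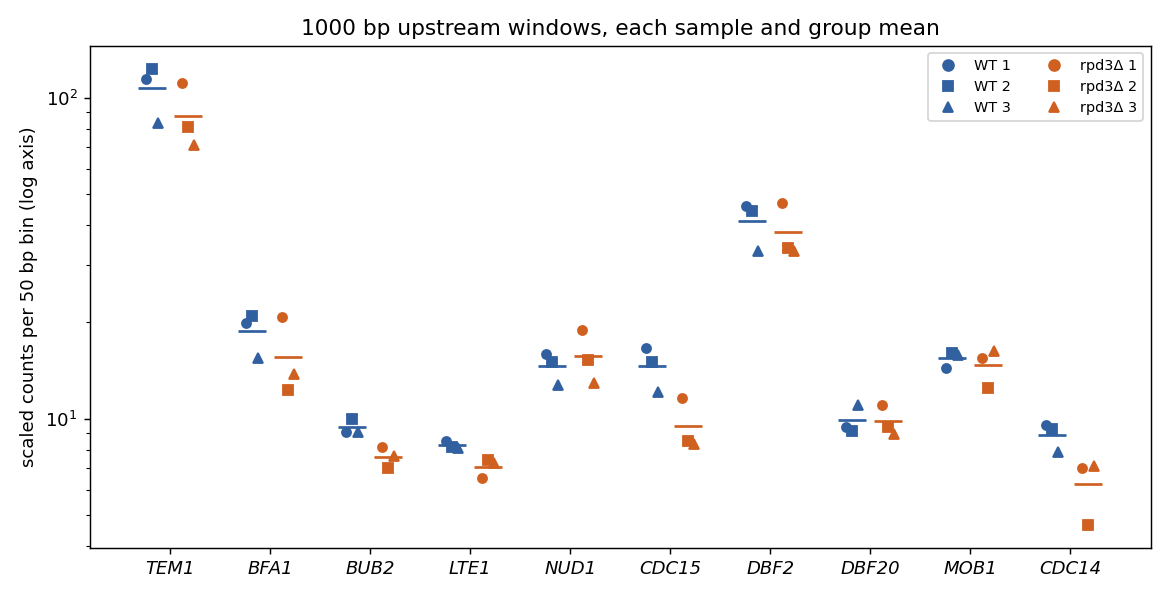
Scaled counts per 50 bp bin (vertical, log axis) in the 1000 bp upstream windows of the 10 genes, with 1 point per sample and a bar at each group mean. The groups are apart at BUB2, LTE1, CDC15 and CDC14 and overlap at the other 6 genes.

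Among the regulators of Tem1, BFA1 (YJR053W, chromosome X, 534027 to 535751) had a clear peak. Its upstream window had 19.9, 20.9 and 15.4 scaled counts per bin for WT against 20.6, 12.3 and 13.7 for rpd3Δ, with the first rpd3Δ sample again among the WT values. The log2 fold change was -0.27 with SE 0.151 (edgeR, adjusted p = 0.331). Without that sample it was -0.54 and passed (edgeR, adjusted p = 0.00896). That fit leaves out the highest rpd3Δ value, which in itself lowers the estimate, so it is no ground for a difference at BFA1. The summit lay 102 bp upstream of the start codon in the summed samples, at 4.24 times the local median, in the 267 bp between BFA1 and the end of RAD7, a DNA repair gene on the same strand. BUB2 (YMR055C, chromosome XIII, 386101 to 387021), the other gene of the complex, had no peak: its window had 9.10, 9.99 and 9.09 in WT and 8.16, 6.99 and 7.65 in rpd3Δ, against 9.08 and 8.93 in the local sequence. Its groups did not overlap, but the value of -0.31 (SE 0.147, edgeR adjusted p = 0.219) did not pass.

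LTE1 (YAL024C, chromosome I, 101565 to 105872) lay in sequence of low signal, 5.49 scaled counts per bin for WT against 5.12 for rpd3Δ outside regions. Its upstream window had 8.51, 8.17 and 8.07 in WT and 6.51, 7.41 and 7.24 in rpd3Δ, without overlap, and a log2 fold change of -0.23 with SE 0.156 (edgeR, adjusted p = 0.433). In all, 4 of the 10 upstream windows had rpd3Δ values wholly below WT, where 14.2% of all upstream windows did, and 0 wholly above, where 8.43% did. On the scale of signal over the local median only BUB2 was wholly lower upstream, where 9.49% of windows were. LTE1 reached 2.40 times the local median in the summed samples, 104 bp upstream, but its highest bin differed between samples, and those bins held 7 to 21 counts each.

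The scaffold gene NUD1 (YOR373W, chromosome XV, 1036834 to 1039389) and the kinase partner gene MOB1 (YIL106W, chromosome IX, 166415 to 167444) had low upstream peaks, of 2.47 and 2.48 times the local median in the summed samples. That of NUD1 lay 158 bp upstream, in the 362 bp gap to the divergent gene NDD1, for an activator of mitotic transcription. Its window had 15.8, 15.0 and 12.7 scaled counts per bin for WT against 18.9, 15.2 and 12.9 for rpd3Δ, with a log2 fold change of 0.11 (SE 0.141). That of MOB1 lay 340 bp upstream, in the 653 bp gap to PFK26, a divergent gene of sugar phosphate metabolism, with 14.4, 16.0 and 15.8 in WT and 15.4, 12.4 and 16.2 in rpd3Δ and a log2 fold change of -0.07 (SE 0.139). Both genes overlapped between genotypes. Unlike at TEM1 and DBF2, the third WT sample was not the low one at MOB1.

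The median log2 fold change of the 10 upstream windows was -0.25, against -0.05 for all upstream windows. It was -0.10 for the 900 binding regions, which 7 of the 10 windows overlapped. Of the 10 windows 8 were below 0, where the median over all upstream windows was itself below 0. The share of all windows or bodies below 0 was not counted. For the 10 bodies the median was -0.13 against 0.01 for all bodies, and 9 of the 10 were below 0. Of all upstream windows 103 passed as higher and 253 as lower. The balance depended on scaling: it was 151 and 228 with signal outside the ribosomal DNA, 209 and 202 with TMM over the windows, 170 and 60 with TMM over the binding regions and 1 and 4245 with total signal. These scalings gave the median over all upstream windows as -0.03, 0.00, 0.08 and -0.55, and that of the 10 as -0.23, -0.20, -0.13 and -0.75. Under the same scalings DBF2 upstream was -0.09, -0.06, 0.01 and -0.61, MOB1 was -0.05, -0.02, 0.05 and -0.57, and NUD1 was 0.13, 0.16, 0.22 and -0.39. DBF20, at 0.01, turned to -0.50 with total signal. TEM1, BFA1, BUB2, LTE1, CDC15 and CDC14 were negative under each of these scalings.

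**Figure D5:**
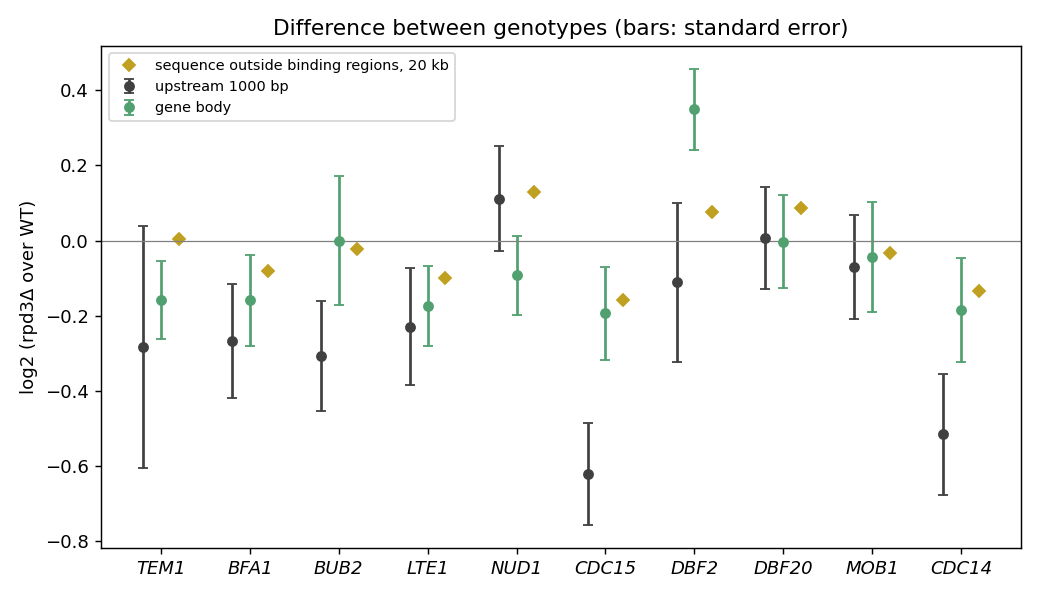
Log2 fold change of rpd3Δ over WT (vertical) with its standard error for the upstream windows and bodies of the 10 genes, and the log2 ratio of the surrounding sequence outside binding regions. CDC15 (-0.62) and CDC14 (-0.52) have the lowest upstream values and DBF2 (0.35) the highest body value.

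Genes around the network were read from 4 further lists with 41 genes. Their counts stand beside 1.73% of all upstream windows called higher and 4.24% lower, and 4.02% and 3.12% of all bodies. Of the 11 genes that release or anchor Cdc14 early in anaphase (the FEAR network and NET1), 0 passed upstream or in the body by edgeR or DESeq2, and 1 window, lower, and 1 body, higher, had an unadjusted edgeR p under 0.05. Among all bodies 12.1% were higher and 8.72% lower at that p. DESeq2 called 4.46% higher and 3.27% lower of the 4346 bodies to which it gave an adjusted p. Listed bodies without one count as not passed. The upstream median log2 fold change of the list was -0.04. NET1, which encodes the Cdc14 anchor, had 2.55 times the local median upstream in the summed samples, with 17.6 ± 1.57 scaled counts per bin for WT against 19.0 ± 5.01 for rpd3Δ (log2 fold change 0.12). SPO12, a positive regulator of exit, had 20.6 ± 0.782 and 15.5 ± 2.77 (-0.40, edgeR adjusted p = 0.0891).

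Of 11 regulators of Tem1 and spindle pole scaffolds, 1 was lower upstream, SPC72, which encodes an anchor of cytoplasmic microtubules. It went from 6.78 ± 0.989 to 4.42 ± 0.792 (-0.63, SE 0.187, edgeR adjusted p = 0.0255), with a local log2 ratio of -0.28 around it. The window had no peak, at 0.914 times the local median in the summed samples. In both genotypes it lay below the local sequence outside binding regions (7.21 for WT and 5.96 for rpd3Δ). Of 12 genes that act downstream, 1 was higher upstream, SIC1, for an inhibitor of the cyclin-dependent kinase, from 9.41 ± 0.628 to 13.8 ± 0.462 (0.54, SE 0.131, edgeR adjusted p = 0.00437). SIC1 lies on chromosome XII, which carries the ribosomal DNA, and the local sequence around it had a log2 ratio of 0.31. The part of either in the SIC1 call was not tested. Of 7 genes of the RAM network, a related kinase pathway, KIC1 was lower upstream (-0.44, edgeR adjusted p = 0.0293) and HYM1 in the body (-0.47, edgeR adjusted p = 0.00697). By DESeq2, 0 of the 11 Tem1 regulators and 0 of the 7 RAM genes passed upstream, so SPC72 and KIC1 were not called. The upstream medians of these 3 lists were -0.02, 0.02 and 0.02.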

How the data were processed

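Anti-FLAG ChIP-seq of 3 WT and 3 rpd3Δ samples was read from 1 table per sample. The authors deposited whole-number counts of reads per 50 bp bin, with no normalization, 241434 bins on 16 chromosomes. The submitters' processing notes list Bowtie2, SAMtools, bedtools and the R64 build. Tool versions, read filters and how reads that match several places were placed: not given in the sources used here. No input library was analysed here. Genes were placed by RefSeq coordinates (R64), and their strand was taken from the last letter of the locus tag.

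Bins were assigned to windows by their centres. The 1000 bp upstream of the start codon and the gene body were summed for every coding gene outside the ribosomal DNA (chromosome XII, 450786 to 490469) and the deleted genes, and a window needed a mean of 10 counts, which all 10 genes had. To call binding regions, the 6 samples were summed and smoothed with a 500 bp running mean; runs of 200 bp or longer were kept where this reached 2 times the 20 kb median, leaving out places whose 20 kb median was under 0.25 of that of the genome. Library size was set by TMM over 1193 bins of 10 kb outside the ribosomal DNA, with binding regions left in. The alternatives, whose effect is given in the closing section, were other scalings, no count filter, other local backgrounds and summit smoothing, each sample left out, the replicate number as a block, a local offset, WT samples 1 and 2 pooled, and 500 bp windows; the scaling on binding regions and the 2000 bp summit search were added after the data were seen. Genotypes were compared with edgeR 4.0.16 (quasi-likelihood test, R 4.3.3) without covariates, and p-values were adjusted by Benjamini-Hochberg over all windows of a kind, with 0.05 as threshold; DESeq2 1.42.0 was an alternative. Standard errors were derived from the log2 fold change and its F statistic. The fit was tested on simulated data. Summaries used Python 3.11.15, numpy 2.4.6, pandas 2.3.3 and scipy 1.17.1, and figures matplotlib 3.10.9.

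The members and lists were chosen with earlier results of these data known. Genes were named by this rule: the 10 members, genes within their upstream windows, RPD3 and BAR1, for each further list the genes that passed (4 at most) or, where none did, the 2 with most upstream signal, and the 5 genes most like TEM1. The gene body result of 1 further list is not reported here. PAU7, the next gene beyond the CDC15 window, was added after the values were seen. In both genotypes 1 pair of samples was close: WT samples 1 and 2 (chi-square per degree of freedom 1.16 over 10 kb bins, from bins 500 bp apart, p = 6.47e-05) and rpd3Δ samples 2 and 3 (1.10, p = 0.00671). Each was counted as 2 samples, and only the WT pair was also pooled.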

Additional observations from a re-analysis of the deposited data

How the results depend on the processing

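Under total signal as library size the upstream counts were 1 higher and 4245 lower, with 7 of the 10 members lower and a member median of -0.75; bodies were 2 and 4303, with 0 members higher, 9 lower and a median of -0.63; regions were 1 and 335, with 2 members lower. The rDNA took 37.1 to 49.7% of WT and 56.0% or more of rpd3Δ signal. Signal outside the rDNA moved regions to 21 and 56. TMM over the windows tested gave 209 higher and 1 member lower upstream, and 116 and 125 regions. TMM over the binding regions, chosen after the data were seen, gave 170 and 60 upstream with 0 members lower, and 2 and 0 bodies with 0 members higher and a median of 0.00225. DESeq2 gave 120 lower upstream with 1 member, 0 members higher in the body, and 111 and 121 regions. The local offset gave 7 and 15 upstream with 0 members, 71 and 78 bodies with 0 members higher and a median of -0.060, and 3 and 6 regions with 0 members. WT samples 1 and 2 pooled gave 37 and 122 upstream with 1 member, 141 and 123 bodies with 0 members higher, and 3 and 6 regions with 0 members. Windows of 500 bp gave 20 and 75, with 0 members lower. Without the count filter the upstream counts were 103 and 252, and no call or direction of a member changed. The TEM1 upstream log2 ratio of signal over the local median, -0.37, was -0.26 with 10 kb, -0.26 with 40 kb and -0.16 with the mean of the local bins.

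The labels do not say whether the sample numbers pair the samples, and correlations over so few samples cannot decide it. Deviations of same-numbered samples correlated at 0.136, -0.0426 and 0.245 upstream and at 0.232, -0.0135 and 0.312 in regions. Not every sample correlated best with its own number. The replicate block gave 166 higher and 358 lower upstream, 329 and 224 bodies and 45 and 151 regions, and changed no call on TEM1, CDC15, CDC14 or DBF2.

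Leaving out 1 sample gave 22 to 109 higher and 83 to 345 lower upstream with 1 to 3 members lower, 108 to 299 and 90 to 203 bodies with 0 to 1 members higher and a member median of -0.12 to -0.070, and 2 to 20 and 5 to 174 regions with 0 to 1 members lower. The TEM1 log2 ratio of signal over the local median ran from -0.63 to -0.20 upstream and from -0.68 to -0.20 at the summit. Upstream log2 fold changes that changed sign ran from -0.045 to 0.23 for NUD1, -0.090 to 0.084 for DBF20 and -0.14 to 0.038 for MOB1; in bodies from -0.086 to 0.059 for BUB2, -0.057 to 0.067 for DBF20 and -0.15 to 0.075 for MOB1; and in the DBF2 region from -0.25 to 0.067.

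In the other changes of sign, DBF2 in the body lost its call under total signal (-0.15), and DBF20 upstream passed as lower under total signal (-0.50, adjusted p = 0.0148); the other values passed neither before nor after. Upstream, NUD1 was -0.39 with total signal and -0.012 with the local offset. DBF20 was -0.084, -0.022 and -0.16 with the local offset, pooled WT samples and 500 bp windows. TMM over the binding regions gave DBF2 0.00563 and MOB1 0.051. In bodies, BUB2 was 0.020, 0.13, 4.32e-05, 0.023 and 0.018 with signal outside the rDNA, TMM over the binding regions, the replicate block, the local offset and pooled WT samples. DBF20 was 0.016 and 0.10 under the first pair of these, and NUD1 0.045 and MOB1 0.081 with TMM over the binding regions. The DBF2 region was 0.073 with TMM over the windows tested, 0.067 with DESeq2 and 0.041 with pooled WT samples. The causes of these changes were not tested. The TEM1 summit stayed at 150 bp in the summed samples under all smoothing and search settings run.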
